A study of Mus musculus with 3 samples.

Results

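The developmental pluripotency-associated genes Dppa2, Dppa3, Dppa4 and Dppa5a were followed in embryonic stem (ES) cells of the mouse, which can give rise to every tissue of the embryo, over the first days of Gata6 overexpression. Gata6 is a transcription factor that specifies primitive endoderm, an extraembryonic tissue that forms beside the epiblast. The 4 genes were taken by name, and every probe set annotated to 1 of them alone was used, which gave 5 probe sets among the 34945 assigned to a single gene. They stand for 4 of 18193 genes on the array. The name Dppa marks a shared expression in pluripotent cells and not a protein family, so the genes were also set beside relatives of their proteins and beside their chromosomal neighbours.

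The study placed 1 array at day 1 and 1 at day 2 of Gata6 overexpression, and 1 at day 0, which the labels call the control. Per the series' design text, the cells were modified to overexpress Gata6 in response to dex, read here as dexamethasone. The sources used here do not give the dose, the strain, or whether the construct was present in the day 0 cells. With 3 arrays and no replicates, days cannot be told apart from single cultures, and no test between them could be made. Values are MAS5 signals, linear intensities that combine matching and mismatching probes into 1 number for each probe set. In a bulk sample, fewer cells of a type and less RNA per cell cannot be told apart.

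Dppa2 and Dppa4 encode small nuclear proteins with a SAP domain, a fold that binds DNA. They lie side by side in the genome, bind each other on chromatin, and in mouse ES cells are needed for expression of Dux and Zscan4, genes of the 2-cell embryo. Dppa3, also called Stella or PGC7, is a maternal and germ cell factor that shields DNA methylation in the zygote and holds the methylation cofactor Uhrf1 away from chromatin. Dppa5a, also called Esg1, encodes a KH-domain RNA-binding protein long used as a marker of ES cells.

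The genes differed from one another over the 2 days. Dppa4 was 3.51-fold lower on day 2 than on day 0, a log2 ratio of -1.81. Dppa2, its partner, had a log2 ratio of -0.62 and did not reach the 2-fold threshold used here. Dppa5a stayed within 10% of its day 0 signal, at 90.1% on day 2. Dppa3 was dim on each array and its differences were within 2-fold. A difference was counted as higher or lower when it was at least 2-fold and the brighter array exceeded a floor of 54.0 (the 40th percentile of signals over the 3 arrays).

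Dppa4 (gene ID 73693, 1 probe set) read 6641 on day 0, 4657 on day 1 and 1893 on day 2. Each later array was dimmer than the one before. The log2 ratio was -0.51 for day 1 against day 0 and -1.30 for day 2 against day 1, so the second step was the wider one. The difference between the steps was -0.79, against an SD of 0.31. The SDs given here come from genes with several probe sets and describe measurement within these arrays, not the spread between cultures. For a single ratio they were 0.12 at signals over 5000, 0.18 from 1000 to 5000, 0.31 from 200 to 1000 and 0.46 below 200. Of 13865 genes compared between day 2 and day 0, 415 had a lower ratio than Dppa4. Between day 2 and day 1 this held for 230 of 13468.

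Dppa2 (gene ID 73703) was read by a pair of probe sets made from the same transcript. The brighter one read 8700 on day 0, 10258 on day 1 and 5660 on day 2. The other read 5929, 6900 and 4071 on the same days. Both were highest on day 1 and lowest on day 2. Their log2 ratios for day 1 against day 0 were 0.24 and 0.22, and those for day 2 against day 1 were -0.86 and -0.76. The first-day differences were 1.92 and 1.77 times the SD, and the second-day ones 6.93 and 6.15 times.

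The partners therefore did not keep step. On day 1, Dppa2 lay above and Dppa4 below its day 0 signal, and their log2 ratios differed by 0.75, 4.28 times the SD of such a difference. For day 2 against day 0 they differed by 1.19 (5.44 times the SD). For day 2 against day 1 alone, both had log2 ratios below 0 (-0.86 for Dppa2, within 2-fold, and -1.30 for Dppa4) and differed by 0.44, 2.01 times the SD. These ratios share arrays, so they are not independent of one another.

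Dppa5a (gene ID 434423, 1 probe set) read 40743 on day 0, 37077 on day 1 and 36722 on day 2. The 3 values lie close together, with log2 ratios of -0.14 for day 1 and -0.15 for day 2 against day 0, 1.10 and 1.21 times the SD. The sign of the day 2 ratio depended on the scaling and was above 0 with quantile (0.04) and loess (0.06) scaling. Between day 2 and day 1 the log2 ratio was -0.01.

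The signal of Dppa5a lay near the top of the scale, where the highest values on the arrays were 53581 on day 0, 47384 on day 1 and 45669 on day 2. Only 30, 30 and 21 of 45037 probe sets were brighter than it on day 0, day 1 and day 2. The values carry no saturation mark, and its part in the flat signal was not tested. Of 109 genes with a day 0 signal of at least 20000, 3 (2.75%) were lower on day 2 and 0 higher, against 11.6% lower and 4.49% higher of the 4139 genes at 1000 or more. Between day 2 and day 1, 0 of 83 genes with a day 1 signal of at least 20000 were called. Of the 4206 genes at 1000 or more on day 1, 2.66% were lower and 1.85% higher. Genes at 20000 or more had little room to be called higher, since the highest signal on day 2 was 45669. The 3 lower on day 2 than on day 0 were all dimmer on day 0 than Dppa5a. They were the mitochondrial protein gene Chchd10 (4321 on day 2 and 22901 on day 0), the lipid phosphatase gene Mtm1 (7119 and 29115) and the pluripotency marker Zfp42, also known as Rex1 (3556 and 22573). The RefSeq gene table also lists pseudogenes Dppa5b and Dppa5c beside Dppa5a, and whether the probe set reads them was not settled here.

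Dppa3 (gene ID 73708, 1 probe set) read 125 on day 0, 104 on day 1 and 183 on day 2. These signals are 1.49 times or more the background (70.2), taken as the 95th percentile of the signals of olfactory and vomeronasal receptor genes, which are not expected in these cells. The log2 ratios were -0.25 for day 1 and 0.56 for day 2 against day 0, and 0.81 for day 2 against day 1, which are 0.55, 1.20 and 1.75 times the SD of 0.46 at such low signals. The day 2 array was the highest of the 3, by less than the measurement error can resolve. A pseudogene, Dppa3-ps, is listed for this gene, and 1 probe set is all that reads it here.

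**Figure D1:**
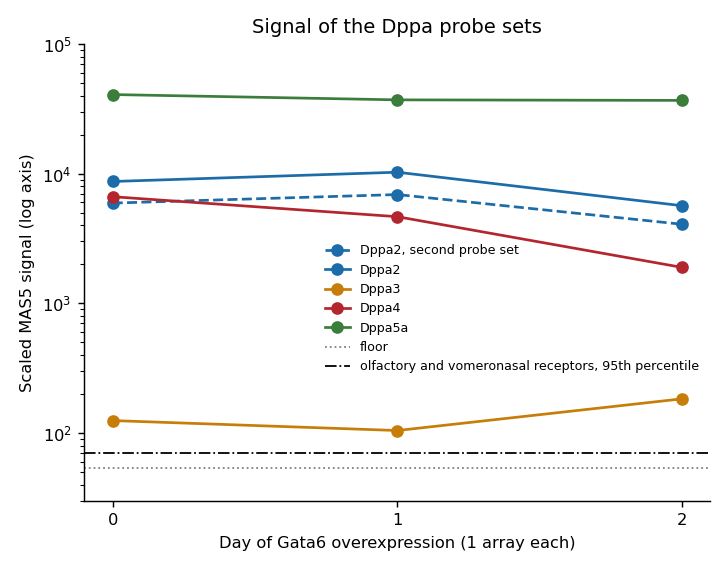
Scaled MAS5 signal (log axis) of the 5 Dppa probe sets on the arrays of day 0, day 1 and day 2, with the floor and the 95th percentile of olfactory and vomeronasal receptor probe sets as horizontal lines. Dppa4 is dimmer on each later day, both Dppa2 probe sets peak on day 1, Dppa5a is flat at the top and Dppa3 stays between 104 and 183.

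Set against all genes, 0 of the 4 were called on day 1 against day 0, where 6.57% of 13602 genes were lower and 6.02% higher. On day 2 against day 0, Dppa4 was called lower and 0 were higher, against 10.1% lower and 11% higher of 13865 genes. On day 2 against day 1, Dppa4 was again lower and 0 were higher, against 3.68% lower and 5.59% higher of 13468 genes. A single called gene among 4 says nothing about the group as a whole. The median log2 ratio of all genes was -0.04, -0.05 and -0.01 in these comparisons. It does not show a shift at high signals alone. With quantile normalization, Dppa5a on day 2 against day 0 went from -0.15 to 0.04.

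**Figure D2:**
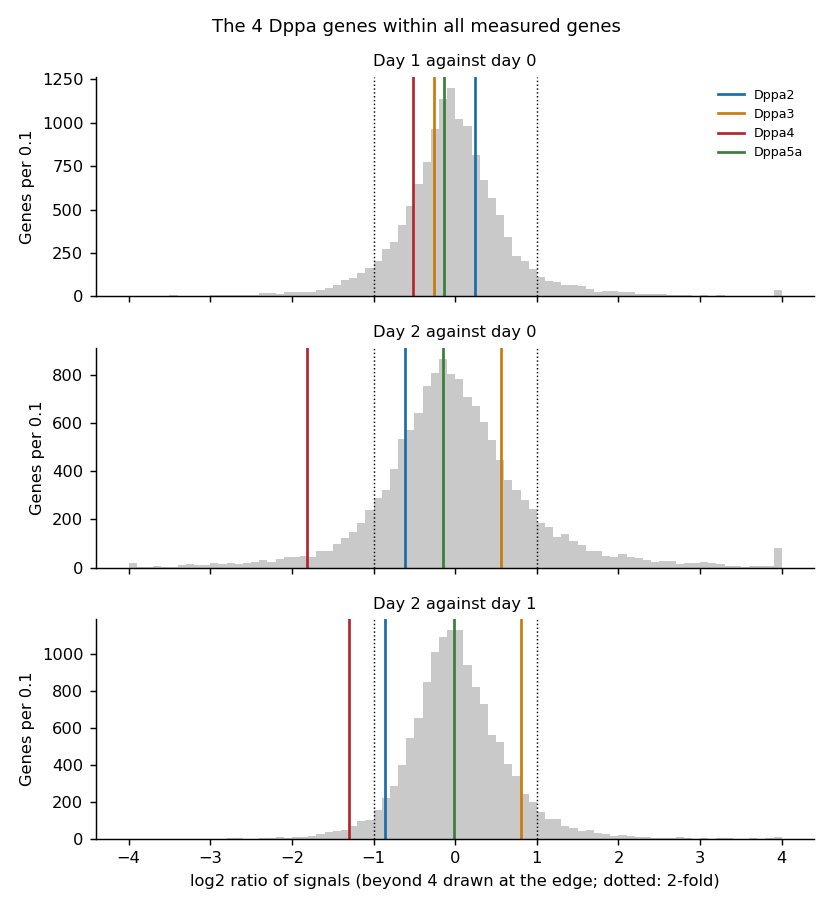
Histograms of the log2 ratio of all measured genes for day 1 against day 0, day 2 against day 0 and day 2 against day 1 (grey, genes per 0.1), with a vertical line for each Dppa gene and dotted lines at 2-fold. Dppa4 alone passes the 2-fold line, at -1.81 on day 2 against day 0 and -1.30 on day 2 against day 1.

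Checks of the cells stood as follows. On day 1 and day 2, 9 of 9 primitive endoderm markers were higher than on day 0. Gata6 read 110 on day 0, 5577 on day 1 and 6068 on day 2. Of 8 ES cell markers, 7 were lower on both days. All 8 together summed to a signal of 80516 at day 0, 29937 at day 1 and 20316 at day 2. Sall4 was the exception, at 8055, 11345 and 10791, and made up most of the day 2 sum, which therefore understates how far the other markers were lower. Of 10 fibroblast markers, which would show feeder cells, 6 (among them Postn, Col3a1 and Col1a1) never exceeded the floor, and the list summed to 674, 434 and 480 over the same days. Thy1 made up most of the day 0 sum at 421 and was lower on day 2, at the floor, while Twist1 was higher on day 2, at 113 and at the floor on day 0. Trophectoderm markers summed to 2985, 4772 and 10618, with Elf5 at the floor on every array. Of 7 measured on day 2 against day 0, 4 were higher and 1 lower. The keratins Krt8 (5364 on day 2 and 567 on day 0) and Krt18 (3845 and 556) made up most of the day 2 sum. The sum therefore follows these keratins and does not by itself show trophectoderm. Cdx2 (121 on day 2, at the floor on day 0) and Gata3 (162 and 72.7) were higher at low signal. Neither call held for a 60th percentile floor, with log2 ratios of 0 for Cdx2 and 0.15 for Gata3. Tfap2c was lower (320 and 884), and Eomes (0.14) and Hand1 (-0.76) had log2 ratios within 2-fold. The part of these markers in the Dppa values was not tested.

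Pluripotency transcription factors, the regulators of the ES cell state, gave the nearest point of comparison. On day 2 against day 0, 13 of 19 were lower and 1 higher, with a median log2 ratio of -2.29. Of all genes, 10.1% were lower and 11% higher. The list holds all of the ES cell markers checked above except Fgf4, so both counts share genes. It also holds Tcl1, an Akt co-activator and not a transcription factor, which is among the 13 lower (-1.64). The 3 widest were the nuclear receptor Nr0b1 (log2 ratio -3.60), the germline and naive state factor Prdm14 (-3.56) and Klf2 (-3.30). Dppa4, at -1.81, lay above that median, but not above the -1.71 that the list gave with genes as means over their probe sets. Dppa2, Dppa5a and Dppa3 lay above both. Dppa2 and Dppa5a had company among the factors that differed less than 2-fold: Klf5 (-0.04), Tbx3 (0.02), Stat3 (-0.11), Klf4 (0.42) and Sall4 (0.42). Mycn was the higher factor at 1.48, but only 0.60 as a mean over its probe sets.

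The timing differed between these genes. Nanog had a log2 ratio of -2.09 in the first step and -0.90 in the second. Prdm14 had -3.25 and -0.31, and Klf2 had -2.96 and -0.34. In Dppa4 the first step was -0.51 and the second -1.30. A wider second step was also read for Tfcp2l1 (-0.62, then -1.30) and for the Akt co-activator Tcl1 (-0.25, then -1.39). It held by a narrower margin for Nr5a2 (-1.06, then -1.31) and Myc (-0.71, then -0.98). Dppa2 had steps of 0.24 and -0.86.

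**Figure D3:**
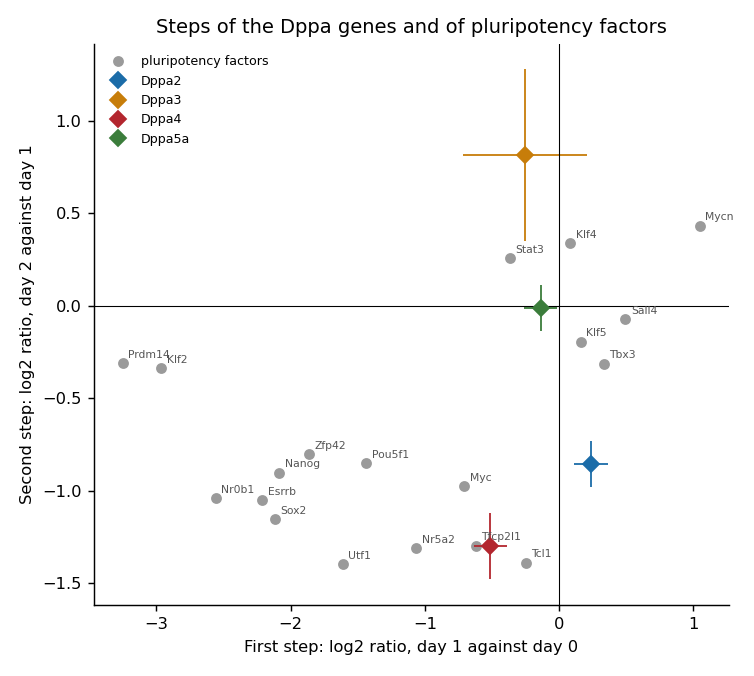
The log2 ratio of day 1 against day 0 (horizontal) and of day 2 against day 1 (vertical) for the 4 Dppa genes (diamonds, bars give the measurement SD) and the 19 genes listed as pluripotency transcription factors, the Akt co-activator Tcl1 among them (grey points). Both axes use the day 1 array, so error in it moves a point along a falling diagonal; Dppa4 lies next to Tfcp2l1, and Dppa2 lies to the right of 0 in the first step and at -0.86 in the second.

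Genes most like each member were sought by the distance between the log2 ratios of day 1 and of day 2 against day 0, over the 3 arrays and among 4918 genes above the floor on every array and at or above 1000 on at least 1 (4919 for Dppa3, which is not among them). Closest to Dppa4 were the SUMO ligase gene Zfp451 (distance 0.06), the naive pluripotency factor Tfcp2l1 (0.15) and the splicing factor Hnrnph3 (0.17). Zfp451 rests on its brightest probe set, and its 4 other, dim probe sets had log2 ratios of 0.27 to 1.17 for day 2 against day 0. Within a distance of 0.25 there were 16 genes for Dppa4, 86 for Dppa2, 61 for Dppa3 and 893 for Dppa5a. Of the 4 patterns, that of Dppa4 was the least common and the flat one of Dppa5a the most common. Closest to Dppa2 were the RNA host gene Snhg6 (0.05), the nucleolar protein gene Nol8 (0.06) and Pwwp3a (0.07). The other 2 probe sets of Nol8 did not share the day 1 peak, each with a log2 ratio of -0.25 for day 1 against day 0 where the one used had 0.21. Closest to Dppa5a were the apoptosis factor gene Diablo (distance under 0.01), Bola2 and the ribosomal protein gene Rps24 (both also under 0.01). The dim second probe set of Diablo had a log2 ratio of -1.04 for day 2 against day 0. Other probe sets of Bola2 ran from -0.002 to 0.78. With unspecific probe sets left out, Rps24 rested on another probe set and was lower on day 2 (-1.36). For Dppa3 they were the galactosyltransferase gene B4galt1 (0.02), Rab31 (0.03) and Lancl1 (0.04), which says little, since the ratios of Dppa3 are within its measurement error.

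The neighbours of the members on the chromosome were read next, the 5 nearest protein-coding genes on each side in RefSeq (assembly GRCm38.p6), which served for gene order only. This gave 30 neighbours. Probe sets were present for 24, and 6 of those never exceeded the floor. On day 2 against day 0, 7 of 18 measured neighbours were lower and 1 higher, with a median log2 ratio of -0.23. Of all genes, 10.1% were lower and 11% higher, with a median of -0.05. Morc1, Gdf3, Nanog and Ooep, all among the lower neighbours, are also in the gene lists compared here, so these counts share genes.

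Dppa4 and Dppa2 lie next to each other on chromosome 16, followed by Morc1, which encodes a germ cell ATPase that silences transposons. Morc1 read 6148 on day 0, 578 on day 1 and 292 on day 2, that is, log2 ratios to day 0 of -3.41 (day 1) and -4.40 (day 2). Dppa2, between Dppa4 and Morc1, had the smallest difference of the 3 adjoining genes on day 1 and on day 2. On the other side, Nectin3, a cell adhesion gene, read 980, 956 and 915. Beyond Morc1, Trat1, Retnlb and Retnla were at the floor on every array.

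Dppa3 lies on chromosome 6 between Gdf3, a growth factor gene of the pluripotent epiblast, and Nanog. Gdf3 read 3505 on day 0, 1670 on day 1 and 342 on day 2, a log2 ratio of -3.36 on day 2 against day 0, and its second probe set had -2.96. Nanog read 14625, 3444 and 1841, a log2 ratio of -2.99. Apobec1, an RNA-editing cytidine deaminase gene next to Gdf3, read 373 and 165 on the first 2 arrays and lay at the floor on the last, so it was at least 6.90-fold lower on day 2 than on day 0. Slc2a3, a glucose transporter gene on the far side of Nanog, read 26015, 27704 and 27477 on its brightest probe set. Its other probe sets had log2 ratios of 0.43 to 0.83 for day 2 against day 0. The dimmest of them was past 2-fold on day 1 against day 0, at 1.01. Dppa3 itself, within this row, was dim on all 3 days and gave no difference of at least 2-fold.

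In this row, 3 further genes were called at low signal. Rimklb stood at -1.04 on day 2 against day 0, and its other 3 probe sets ran from -3.19 to -1.94; with a pseudocount it was within 2-fold (-0.88). Mfap5 was at -1.14 on day 2 with another probe set at -0.58, and was within 2-fold with a pseudocount (-0.80), means over probe sets (-0.86) and a 60th percentile floor (-0.29). Foxj2 was the 1 higher neighbour, at 1.03, which was under 2-fold with quantile normalization (0.95), loess scaling (0.997), a pseudocount (0.91) and means over probe sets (0.51).

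Dppa5a lies on chromosome 9 beside Ooep, which also encodes a KH-domain protein, of the maternal complex of the oocyte. Ooep read 5115 on day 0, 3927 on day 1 and 1306 on day 2. Its log2 ratio was -0.38 in the first step and -1.59 in the second, while its neighbour Dppa5a had -0.14 and -0.01. The next gene, the helicase gene Ddx43, read 641, 521 and 343, and Mto1 read 889, 1097 and 934. Eef1a1, a translation elongation factor gene of very high signal, had a log2 ratio of -0.11 on day 2.

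**Figure D4:**
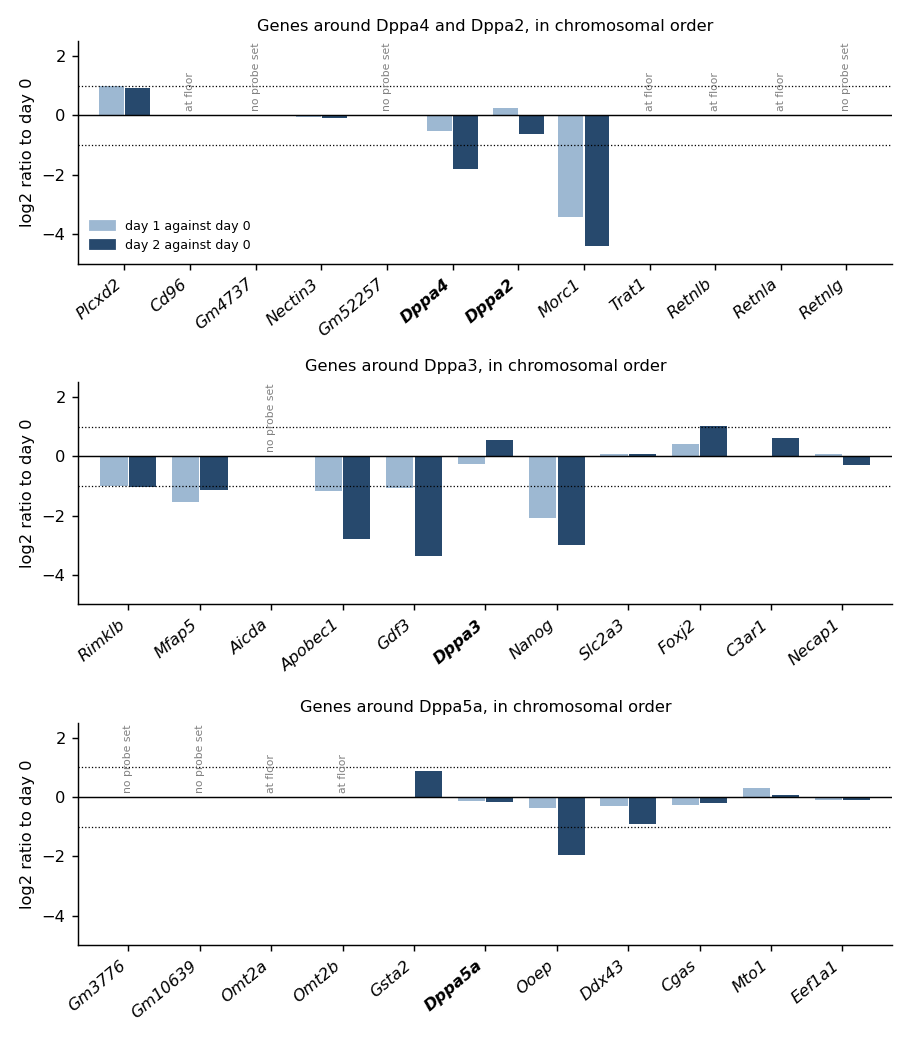
Log2 ratio against day 0 on day 1 (light bars) and day 2 (dark bars) for the genes around Dppa4 and Dppa2, around Dppa3 and around Dppa5a, in gene order; dotted lines mark 2-fold and grey words mark genes with no probe set or at the floor on every array. Morc1, Gdf3, Nanog and Ooep are far below 0 on day 2, next to members at -0.62, 0.56 and -0.15.

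Relatives of the proteins were compared as lists, as were the groups that follow. Each list count for day 2 against day 0 stands beside 10.1% of all genes lower and 11% higher. Of 5 measured KH-domain relatives and maternal complex genes on day 2, 3 were lower and 0 higher, with a median log2 ratio of -1.06 (-0.63 over more genes for a 25th percentile floor). They were Khdc3 (-2.17), Ooep (-1.97) and the Piwi pathway gene Tdrkh (-1.06), the last at the floor on day 2 and on the 2-fold line. Khdc3, also called Filia, read 6976, 2402 and 1552. Dppa5a, at -0.15, stood apart in value from the 2 bright KH-domain genes Khdc3 and Ooep. Khdc1a, Khdc1b, Nlrp5 and Padi6 were at the floor on each array.

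Proteins were also listed for the SAP domain, the DNA-binding fold of Dppa2 and Dppa4. Of 20 measured on day 2, 2 were lower and 0 higher, with a median of -0.14. The share that was lower is near the 10.1% of all genes. The list holds Zfp451 and Trim33, for which the domain is not certain, and without them (left out with their values known) 1 of 18 was lower, with a median of -0.12. The 2 lower genes were Zfp451 (-1.76 on the probe set used and 0.22 as a mean over its probe sets) and the DNA repair gene Xrcc6 (-1.42, and -0.71 as a mean over its probe sets). The mRNA export gene Sarnp stood at -0.91. Dppa4, at -1.81, lay below Xrcc6, and Dppa2, at -0.62, lay above Sarnp.

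Targets that depend on Dppa2 and Dppa4, with other genes of the 2-cell embryo, were read for 9 of 18 listed genes, the others having no probe set assigned to them alone. By day 2, 5 of 9 were higher than on day 0 and 0 lower. The median log2 ratio of 2.19 is that of Tcstv3, whose day 0 signal of 67.1 lay below the receptor background of 70.2, and it was 1.54 for a 60th percentile floor and 1.60 with a pseudocount. Tcstv1 was at the floor on day 0 and at 285 on day 2, and its call was lost with the higher of these floors (0.97). Usp17la had a log2 ratio of 3.32, Arg2 of 2.57 and Zfp352 of 2.55. Usp17la belongs to a family of near-identical copies and read 251, 641 and 2510 on the 3 days. Dux itself (Duxf3) read 67.8, 64.6 and 55.5, below that background. The meiotic gene Syce1, known as a Dppa2 target in mouse ES cells, had -0.46, and Nkx2-5 had -0.14.

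Germ cell genes, with which Dppa3 and Dppa5a share expression in the germline, were mostly dimmer. By day 2, 12 of 21 measured were lower than on day 0 and 0 higher (median -1.15). With a pseudocount, 9 of 21 were lower (median -0.96). On day 1 against day 0, 4 of 22 were lower and 0 higher, with a median of -0.38, against 6.57% lower and 6.02% higher of all genes. The widest on day 2 were Prdm14 (-3.56, also listed among the pluripotency factors), the interferon-induced membrane gene Ifitm1 (-3.27) and the meiotic cohesin gene Stag3 (-2.41). Some had a second step far wider than the first, as Dppa4 did. The Piwi pathway gene Mael read 1664 on day 0, 1518 on day 1 and 498 on day 2, Tdrd12 read 373, 308 and 109, and the kinase gene Stk31 read 766, 702 and 288. Others were near their day 0 signal on day 2, among them Ddx4 (-0.01), the marker helicase of germ cells, and the meiotic gene Sycp3 (0.23).

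DNA methylation genes were listed for the link of Dppa3 with Uhrf1. Relative to day 0, 3 of 10 measured were lower on day 2 and 0 higher (median -0.78). They were the 5-methylcytosine oxidase gene Tet1 (-2.82), the imprint keeper Zfp57 (-2.76) and Uhrf1 (-1.27). Uhrf1 read 4942, 2581 and 2053 on the 3 days, and the maintenance methyltransferase gene Dnmt1 read 4460, 3074 and 2318. The de novo enzymes Dnmt3a and Dnmt3b were highest on day 1, at 5338 and 14847, against 969 and 6541 on day 0. Dnmt3l, their cofactor, read 8274, 10874 and 4615, with log2 ratios of 0.39 and -1.24 in the first and second steps. Like Dppa2 it was brightest on day 1 and dimmest on day 2, with both days within 2-fold of day 0.

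Other ES cell markers held 10 of 18 lower and 0 higher on day 2 (median -1.58). The widest were the Ras gene Eras (-4.98), Morc1 (-4.40) and the growth factor gene Fgf4 (-3.87). The F-box gene Fbxo15, long used as an ES cell reporter, was at 0.16, the RNA-binding protein genes Lin28a and L1td1 were at 0.73 and -0.69, and Dppa5a at -0.15 lay among these.

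**Figure D5:**
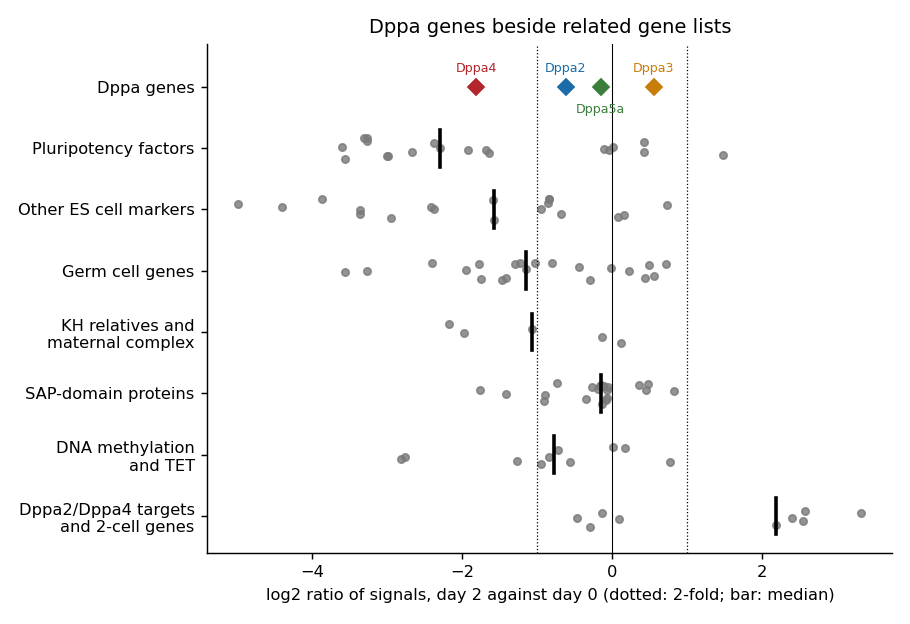
Log2 ratio of day 2 against day 0 for the 4 Dppa genes (diamonds) and for the measured genes of 7 lists (points, with the median as a bar); dotted lines mark 2-fold. List medians run from -2.29 for pluripotency factors to 2.19 for Dppa2 and Dppa4 targets and 2-cell genes (1.54 for a 60th percentile floor), and the Dppa genes spread from -1.81 to 0.56.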

How the data were processed

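Total RNA was labelled with an Affymetrix kit, per the labels' protocols, and the authors deposited linear intensity values per probe set that, per the submitters' processing notes, came from MAS5 (version not named). Column medians were 84.2 (day 0), 81.8 (day 1) and 86.4 (day 2), with no centring, and the trimmed means were equal to within 1 unit at about 497, so arrays had been scaled before deposit to a target that is not stated. Genes came from the platform annotation, with symbols updated by gene ID in RefSeq (34741 of 34945 probe sets matched). A further 932 probe sets had several genes and 9160 none.

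Arrays were rescaled to 1 trimmed mean (2% at each end, 64 control probe sets left out), set to a floor at the 40th percentile and put on the log2 scale. A gene was its brightest probe set. The measurement SD is that of the difference in log2 ratio between a gene's 2 brightest probe sets, divided by the square root of 2. It rests on 15369 differences, with each pair of probe sets entered once for each of 3 comparisons, so these are not independent. Probe sets had to be above the floor on all 3 arrays, and pairs were grouped by the signal of the dimmer one. With 1 array per day there is no p-value, and their number limits the precision. Named genes were the members, their 5 neighbours on each side, the 3 most similar genes, the 3 widest of each list at day 2 and the markers; further list genes are examples chosen after their values were seen. Members and lists were chosen with earlier results of these data known. Promoter motifs and protein comparisons were not analysed here. Python 3.11.15, numpy 2.4.6, pandas 2.3.3 and statsmodels 0.14.6 were used. Alternatives were other scalings, floors, a pseudocount of 50, other choices of probe set and a 3-fold threshold.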

Additional observations from a re-analysis of the deposited data

How the results depend on the processing

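The calls of the 4 Dppa genes were the same under all 8 alternatives of scaling, floor and probe set: Dppa4 lower on day 2 against both earlier days, the rest within 2-fold. Over 96 such values, 92 moved by less than the measurement SD, but many of the 96 could not move. Dppa3, Dppa4 and Dppa5a have 1 probe set each, so the choice of probe set could not change them. Every signal of Dppa2, Dppa4 and Dppa5a lay above all of the floors tried. The arrays were already scaled alike at deposit, so leaving out the rescaling changed little. Dppa4 ran from -1.81 to -1.73 on day 2 against day 0, and Dppa2 from -0.62 to -0.50. The 3-fold threshold is not among these 8 alternatives. At 3-fold, Dppa4 would still be lower on day 2 against day 0 (3.51-fold), but not against day 1 (2.46-fold). Dppa5a was 0.00 on day 1 and 0.042 on day 2 against day 0 with quantile normalization and 0.059 on day 2 with loess scaling. Dppa3 on day 2 against day 1 was 0.33 at a floor of the 60th percentile, which hides its lower signals. Counts of called genes moved with the floor and the threshold: 2876 on day 1 against day 0 and 2246 on day 2 against day 1 for a 25th percentile floor, 1057 and 710 for a 60th, and 632, 1260 and 339 for the 3 comparisons at 3-fold. Among other genes, Zfp451 turned to 0.22 on day 2 against day 0 and 0.086 against day 1 as a mean over probe sets. Tfcp2l1 was at -0.64 on day 2 by that mean, since its other probe sets were at the floor. Of 264 list medians 24 moved by more than 0.34, the SD of a ratio over all signal levels, and 0 of those past 2-fold changed sign. Of 416 values of neighbours, 24 changed their call. No paired analysis was possible because each day has 1 array.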
